A study of Mus musculus with 8 samples.

Results

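The 8 genes described here, Ppp1r1b, Adcy5, Gnal, Gng7, Ptpn5, Arpp21, Arpp19 and Ric8b, carry a dopamine signal from its receptor to cyclic AMP and to the proteins that cyclic AMP controls. They were taken by name from a list, and all 8 were found among the 32285 genes of the count matrices. Nuclear RNA was measured with the 10x Multiome assay, which reads RNA and open chromatin from the same nucleus, in striatum from 32 inbred mice aged 12 weeks. There were 8 strains with 4 mice each. Nuclei from 8 mice, 1 of each strain and balanced for sex, were mixed before loading in each of 4 batches, and a mouse was told from its pool mates by its sequence variants. No mouse had a treatment or an engineered allele, so the strains were compared with each other and no strain served as a control. The classical laboratory strains were C57BL/6, A/J, 129S1/SvImJ, the diabetes-prone NOD/ShiLtJ and the obese NZO/HlLtJ, and the strains derived from wild mice were WSB/EiJ, PWK/PhJ and CAST/EiJ. The substrain of the first is in doubt, since the deposited table of nuclei has C57BL/6NJ where the design text has C57BL/6J, and it is therefore written as C57BL/6.

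Projection neurons of the striatum are inhibitory cells that receive dense dopamine input, and they fall into a direct pathway population with the dopamine receptor Drd1 and an indirect pathway population with Drd2. Drd1, and in the other population the adenosine receptor Adora2a, raise cyclic AMP through a G protein whose alpha subunit is Gnal (Golf) rather than the Gs protein used in most tissues, while Drd2 opposes this step. Cyclic AMP then activates protein kinase A (PKA), which phosphorylates inhibitors of protein phosphatases such as DARPP-32, the product of Ppp1r1b, so that kinase activity rises while the opposing phosphatases are held back.

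Gnal encodes the alpha subunit, Gng7 a gamma subunit of the same complex, and Ric8b the chaperone that stabilises Golf and related alpha subunits. Adcy5 encodes adenylyl cyclase 5, the main striatal enzyme that makes cyclic AMP. Ppp1r1b, Arpp21 and Arpp19 encode substrates of PKA: DARPP-32 inhibits protein phosphatase 1, ARPP-21 (also called RCS) binds calmodulin and RNA, and ARPP-19 inhibits protein phosphatase 2A. Ptpn5 encodes STEP, a tyrosine phosphatase that PKA inactivates and that acts on ERK kinases and on Fyn.

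In GRCm38.p6, the build of the deposited regions, Ppp1r1b lies at chr11:98348406-98357796, Adcy5 at chr16:35154494-35305743, Gng7 at chr10:80948624-81014925, Ptpn5 at chr7:47077795-47134026, Arpp21 at chr9:112065091-112236288, Arpp19 at chr9:75037614-75060313 and Ric8b at chr10:84917268-85018337. The RefSeq genes that overlap them include the long noncoding 1700003D09Rik in Ppp1r1b, Chmp1b and Mppe1 in Gnal, and Mir128-2 in Arpp21. How the authors' counting used strand is not given in the sources used here, so reads of such overlapping genes cannot be told apart. RefSeq promoter windows of GRCm38.p6, each from 250 bases before to 50 bases after a transcript start, were at hand for 6 of the 8 genes, 17 windows in all, and Ppp1r1b and Gnal were not matched. The deposited list of accessible regions held 291715 peaks of 999 bases. Of the 17 windows, 8 overlapped such a peak, in Arpp19, Arpp21, Ptpn5 and Ric8b, beside 53.1% of all 32851 windows in the RefSeq table. The 4 windows printed here are open starts of Ptpn5 and of genes called as moving with it over mice (Ric8b, Arpp21 and, by Pearson's r alone, Arpp19). Each is given 5′ to 3′ on the strand of its gene, with capitals at matches to the cyclic AMP response element TGACGTCA, to its core TGACG, which the full element contains, and to the GC box GGGCGG, on either strand.
Ptpn5, chr7:47132549-47132848, minus strand: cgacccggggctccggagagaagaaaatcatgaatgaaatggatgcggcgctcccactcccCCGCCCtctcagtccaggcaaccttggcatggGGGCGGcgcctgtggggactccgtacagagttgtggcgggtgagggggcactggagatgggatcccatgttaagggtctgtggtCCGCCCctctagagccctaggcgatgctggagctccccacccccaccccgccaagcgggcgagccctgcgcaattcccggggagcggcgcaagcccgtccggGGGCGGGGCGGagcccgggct
Ric8b, chr10:84917363-84917662, plus strand: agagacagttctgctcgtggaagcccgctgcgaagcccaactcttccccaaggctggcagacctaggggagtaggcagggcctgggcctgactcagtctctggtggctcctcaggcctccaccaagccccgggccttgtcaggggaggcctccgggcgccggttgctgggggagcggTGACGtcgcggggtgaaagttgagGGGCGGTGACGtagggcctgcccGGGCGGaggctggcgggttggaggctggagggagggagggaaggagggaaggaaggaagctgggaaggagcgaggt
Arpp19, chr9:75037482-75037781, plus strand: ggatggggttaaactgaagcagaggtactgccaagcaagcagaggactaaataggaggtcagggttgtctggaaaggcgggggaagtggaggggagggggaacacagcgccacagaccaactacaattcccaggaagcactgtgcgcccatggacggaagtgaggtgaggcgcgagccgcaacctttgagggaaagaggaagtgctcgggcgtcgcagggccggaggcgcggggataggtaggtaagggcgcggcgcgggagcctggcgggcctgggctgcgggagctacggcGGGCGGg
Arpp21, chr9:112187717-112188016, minus strand: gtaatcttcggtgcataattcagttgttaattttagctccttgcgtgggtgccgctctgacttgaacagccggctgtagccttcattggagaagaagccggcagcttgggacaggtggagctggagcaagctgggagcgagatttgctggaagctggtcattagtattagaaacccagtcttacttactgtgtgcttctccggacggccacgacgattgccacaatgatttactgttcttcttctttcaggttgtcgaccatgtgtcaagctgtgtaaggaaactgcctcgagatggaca
The Ptpn5 window held 5 GC boxes, some of them overlapping, the Ric8b window 2 core elements and 2 GC boxes, the Arpp19 window 1 GC box, and the Arpp21 window no match. GC content of these printed windows was 69.0% for Ptpn5, 68.3% for Ric8b, 64.7% for Arpp19 and 49.7% for Arpp21, beside a median of 52.7% over all windows. Open windows of the same gene could differ. An open Arpp19 window not printed, from chr9:75037364, held no match and had 53.7% GC. The open Arpp21 windows not printed held no match either and had 41.7% to 52.3% GC. No window of the 6 genes held the full TGACGTCA. Over all RefSeq windows, 1.79% held TGACGTCA, 20.8% TGACG and 35.7% GGGCGG. These matches describe letters and not bound sites. The region list pools all nuclei, so it says nothing of which cell type or strain was open at these starts.

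The 4 batches gave 55672 annotated nuclei in 18 clusters named by the authors, with a median of 4329 unique molecular identifiers (UMIs, counted molecules) per nucleus. Batch 3 was the shallowest, with a median of 3232 UMIs against 4593 to 4931 in the others. In all, 1517 barcode sequences occurred in more than 1 batch, and nuclei were therefore kept apart by batch and barcode together. Counts were summed per mouse and cluster into libraries, which held 1710451 to 9416806 counts in Drd1+ neurons (15395 nuclei) and 1251786 to 6803437 in Drd2+ neurons (13203 nuclei). The main clusters held the markers of their names: on plain library totals, Drd1 stood at 219 CPM (counts per 1e+06 counts) in Drd1+ and 10.2 in Drd2+ neurons, Drd2 at 11.9 and 437, and the second Drd1+ cluster (1506 nuclei) had Otof at 220 CPM against 12.9 in the first, a marker of eccentric projection neurons. The cluster named mural cells was mixed. It had the mural markers Rgs5 at 403 and Pdgfrb at 662 CPM, but also Pde10a, a projection neuron gene, at 2311 CPM against 3032 in Drd1+ neurons. Marker genes of other cells reached every cluster: the myelin gene Mbp stood at 904 CPM in Drd1+ neurons against 7461 in oligodendrocytes.

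Across cell types, 7 of the 8 genes were at their highest mean level in Drd1+ or Drd2+ neurons, and the exception was Arpp21. Levels in this account of cell types are CPM scaled by TMM over the libraries of all clusters, given as mean ± SD over mice, and are compared for each gene between clusters and not between genes. Clusters adjacent in a gene's order were compared within mice by two-sided sign-flip permutation tests, of which 25 of 107 differed after adjustment over all of them. Each level counts nuclear RNA, spliced or not.

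**Figure D1:**
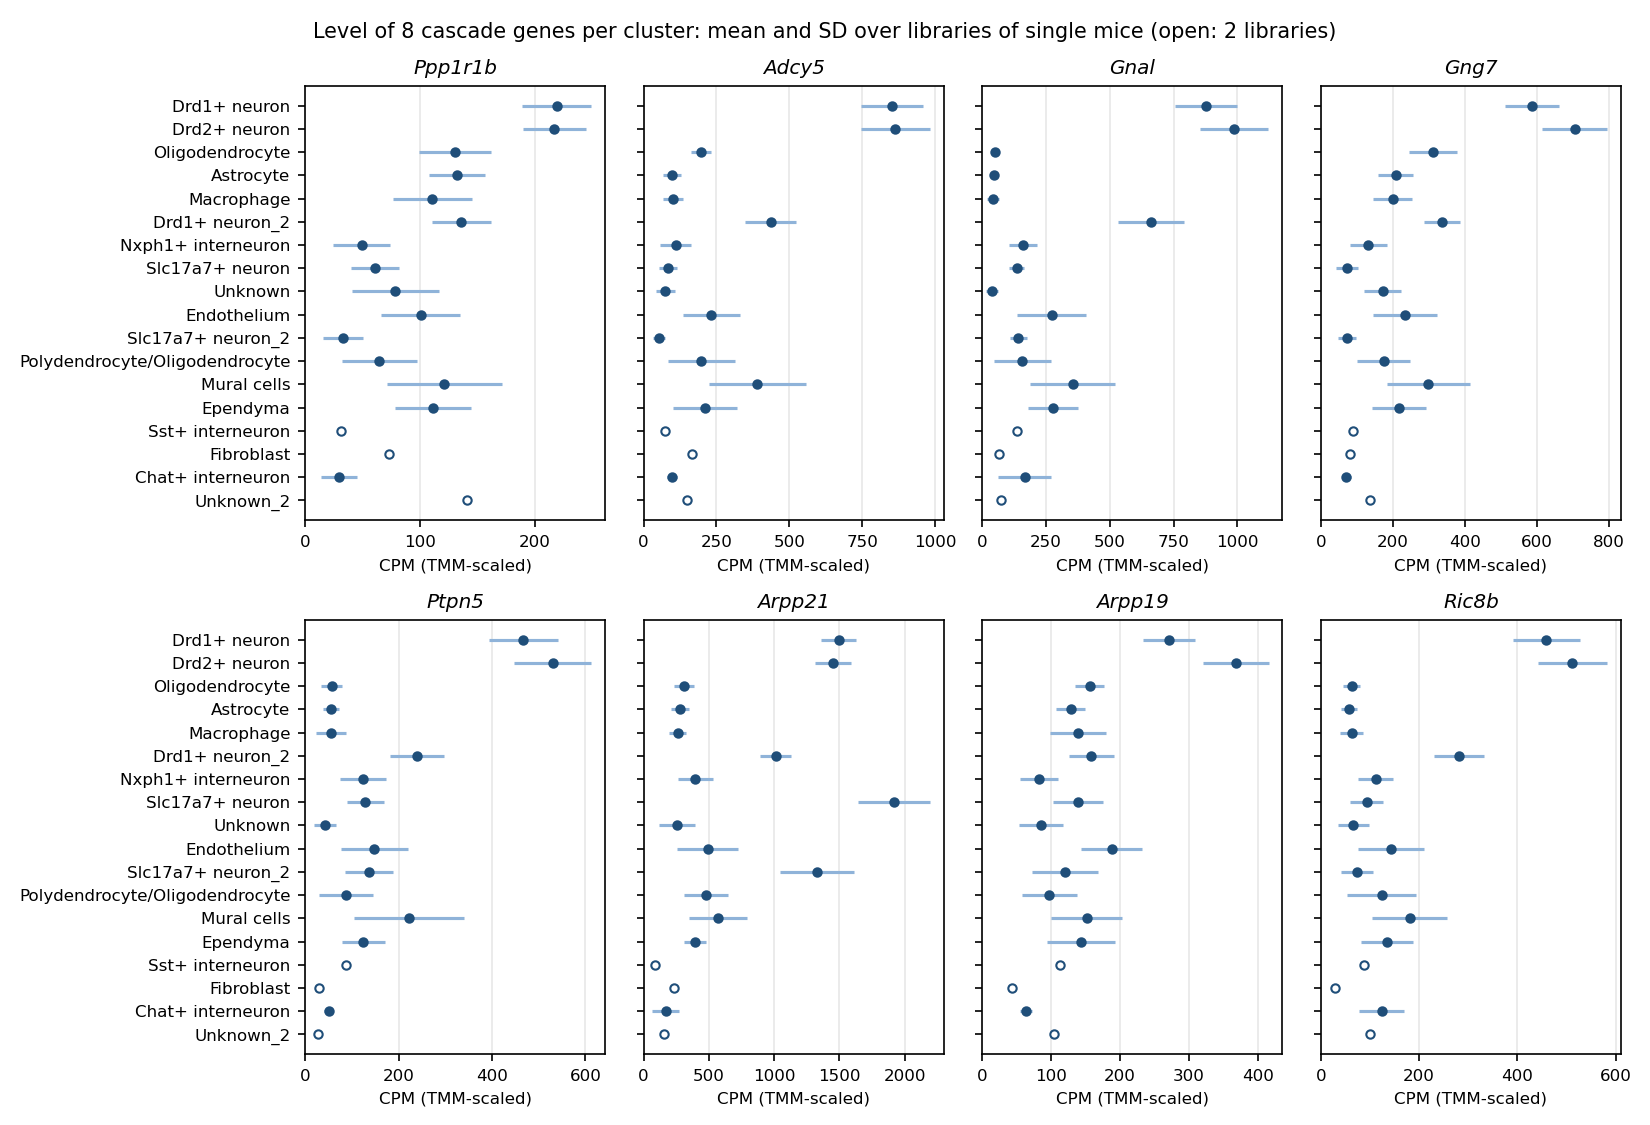
Levels of the 8 genes by cluster, 1 panel per gene. Points are means and horizontal lines SDs over mice with a library of at least 10 nuclei, in TMM-scaled CPM on a linear axis from 0 that differs between panels, and open points are means of 2 mice without an SD. Gnal, Ptpn5 and Ric8b stand highest in the 3 projection neuron clusters, with the mural cluster next. Arpp21 is highest in Slc17a7+ neurons, and Ppp1r1b is spread over nearly all clusters.

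The alpha subunit gene Gnal was high in the projection neurons and low in oligodendrocytes, astrocytes and macrophages. It stood at 986 ± 134 CPM in Drd2+ neurons, 877 ± 121 in Drd1+ neurons and 662 ± 130 in the second Drd1+ cluster (n = 32 mice each). Next came the mixed mural cluster at 354 CPM, ependyma at 277 and endothelium at 272. Gnal was at 158 CPM in Nxph1+ interneurons, 156 in Polydendrocyte/Oligodendrocyte, 50.1 in oligodendrocytes, 47.6 in astrocytes and 41.7 in macrophages. All 3 steps from Drd2+ neurons down to the mural cluster passed the permutation test, with adjusted p of 8.23e-05 to 0.000153. Ric8b, the chaperone, followed the same order at the top, with 512 ± 71.0 CPM in Drd2+, 459 ± 68.5 in Drd1+ and 281 ± 51.7 in second Drd1+ neurons. It was at 57.6 to 63.0 CPM in oligodendrocytes, astrocytes and macrophages. Levels between these were 180 CPM in the mural cluster, 143 in endothelium, 135 in ependyma and 124 in Polydendrocyte/Oligodendrocyte. Cholinergic (Chat+) interneurons held 123 CPM of Ric8b in 3 mice, a number at which a difference from its neighbours cannot be shown by these tests.

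Gng7 was less restricted than its partner subunit. It stood at 704 ± 90.6 CPM in Drd2+ neurons and 586 ± 75.6 in Drd1+ neurons, and second Drd1+ neurons (mean 336 CPM, SD 49.998) were followed closely by oligodendrocytes (311 ± 67.6). The last 2 did not differ in the permutation test over 32 mice (adjusted p = 0.273). Its lowest means lay close together, at 70.8 CPM in Chat+ interneurons (3 mice) and 71.6 and 72.0 in the Slc17a7+ clusters.

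Adcy5 was level between the main populations, at 864 ± 118 CPM in Drd2+ and 852 ± 107 in Drd1+ neurons (adjusted p = 0.315, permutation test, n = 32 mice). Second Drd1+ neurons held 436 ± 87.9 CPM, and all 32 mice were lower there than in Drd1+ neurons. Outside neurons, Adcy5 was highest in the mixed mural cluster, at 391 ± 167 CPM (n = 20 mice). It stood at 233 CPM in endothelium, a step that passed the permutation test (adjusted p = 0.00374), at 211 in ependyma and at 196 ± 34.5 in oligodendrocytes, against 97.9 ± 30.3 in astrocytes and 101 in macrophages. The lowest mean was 53.5 CPM, in second Slc17a7+ neurons.

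The phosphatase gene Ptpn5 stood at 529 ± 82.7 CPM in Drd2+, 467 ± 74.0 in Drd1+ and 239 ± 57.7 in second Drd1+ neurons. The mixed mural cluster, at 222 ± 117 CPM, did not differ from second Drd1+ neurons in the permutation test over 20 mice (adjusted p = 0.278). Endothelium held 148 CPM of Ptpn5, and the Slc17a7+ clusters 129 and 137. In oligodendrocytes, astrocytes and macrophages Ptpn5 was at 56.1 to 56.7 CPM. Arpp19 reached 369 ± 48.2 CPM in Drd2+ and 271 ± 38.2 in Drd1+ neurons, and then declined in small steps from 188 CPM in endothelium to 63.9 in Chat+ interneurons, the lowest among clusters with at least 3 mice. Below Drd1+ neurons, among these later steps, only that from endothelium to second Drd1+ neurons (158 CPM) differed in the permutation test, with an adjusted p of 0.00683.

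Arpp21 was highest in the first cluster of Slc17a7+ neurons, at 1918 ± 275 CPM in 20 mice. Slc17a7 encodes the vesicular glutamate transporter of cortical and hippocampal excitatory cells. Drd1+ neurons followed with 1494 ± 135 CPM and Drd2+ neurons with 1449 ± 139 (n = 32 mice each), and second Slc17a7+ neurons with 1329 ± 282 (n = 16). In the permutation test Drd1+ exceeded Drd2+ neurons by 0.04 on the log2 scale, in 27 of 32 mice (adjusted p = 0.000267). All 20 mice that had both libraries were higher in Slc17a7+ than in Drd1+ neurons, by 0.38 on the log2 scale (adjusted p = 8.23e-05, permutation test). Ppp1r1b in the same Slc17a7+ cluster stood at 60.7 ± 20.9 CPM, which ranked 11 among 15 clusters, whereas Arpp21 ranked 1. Among clusters with at least 3 mice, Chat+ interneurons had the lowest mean of Arpp21, 169 CPM. Sst+ interneurons (87.2) and the second cluster without a cell type name (160), with 2 mice each, were lower still.

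Ppp1r1b was spread over neurons and glia. It stood at 219 ± 30.3 CPM in Drd1+ and 217 ± 27.3 in Drd2+ neurons, with an adjusted p of 0.812 in the permutation test over 32 mice. Second Drd1+ neurons had 136 ± 25.8 CPM, astrocytes 132 ± 24.5, oligodendrocytes 130 ± 31.2 and macrophages 110 ± 34.4. On plain library totals the excess of Drd1+ neurons over oligodendrocytes was 0.48 on the log2 scale for Ppp1r1b, against 0.77 with TMM, and 0.49 for Arpp19, against 0.79. None of the steps between neighbours from second Drd1+ neurons downward passed the test. These tests compare adjacent clusters only, so they cannot show that the level was even. Among clusters with at least 3 mice the lowest means of Ppp1r1b were in neurons: 49.2 CPM in Nxph1+ interneurons, 32.8 in second Slc17a7+ neurons and 29.6 in Chat+ interneurons.

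The glial share of each gene was set beside that of projection neuron markers, because RNA released from broken cells gives counts in every droplet. Here CPM are pooled over mice on plain library totals. Averaged over oligodendrocytes, astrocytes and macrophages, Ppp1r1b stood at 80.8% of its highest projection neuron level, Arpp19 at 53.7%, Gng7 at 48.4%, Arpp21 at 26.9%, Adcy5 at 20.8%, Ric8b at 16.5%, Ptpn5 at 15.5% and Gnal at 6.88%. Among markers, Penk stood at 17.8%, Drd1 at 10.4%, Rgs9 at 5.31% and Drd2 at 3.74%. For some members the 3 glial types lay close together: Ppp1r1b ranged from 77.4% to 82.6% over the 3 types, Arpp21 from 26.3% to 27.9% and Gnal from 6.64% to 6.998%. Adcy5 ranged from 15.96% to 28.2%, Gng7 from 42.2% to 57.5% and Arpp19 from 47.6% to 60.5%. What part of these glial counts came from free RNA was not tested.

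The glial share was also set beside gene length. Ppp1r1b spans 9391 bases and Arpp19 22700, while Adcy5 spans 151250 and Arpp21 171198. Over the 8 genes the percentage and the log10 of the span had r = -0.86 (Spearman's rho = -0.50). Over these 8 with 10 projection neuron genes it was weaker, r = -0.30 (rho = -0.31, n = 18 genes), and over 17 projection neuron markers r was -0.41 (rho = -0.61). These are descriptions across genes, which are not independent replicates and share the same libraries.

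**Figure D2:**
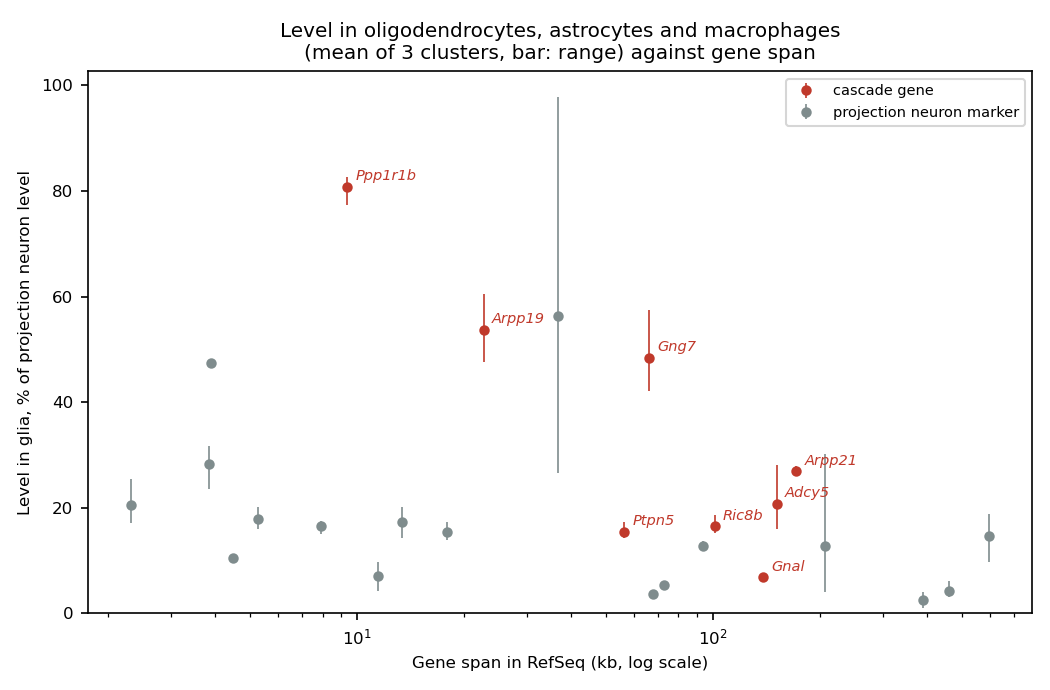
Mean level in oligodendrocytes, astrocytes and macrophages as a percentage of the highest projection neuron level, against genomic span in kb on a log axis. Points are the 8 cascade genes (named) and the projection neuron markers (grey), and vertical lines span the 3 glial types. Ppp1r1b, the shortest of the 8, is at 80.8%, and Gnal is at 6.88%.

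After these values were seen, the 3 glial types were compared directly, in 24 pairs adjusted together. Oligodendrocytes exceeded astrocytes in Adcy5 by 1.04 on the log2 scale, in 32 of 32 mice, and macrophages by 1.00, also in 32 of 32, each with an adjusted p of 6e-05 in the sign-flip permutation test. For Gng7 the differences were 0.59 over astrocytes and 0.66 over macrophages, in 30 of 32 mice each, again with an adjusted p of 6e-05 in that test. On plain library totals they were 0.92 and 0.67 for Adcy5 and 0.46 and 0.33 for Gng7, with the same adjusted p. In all, 9 of the 24 pairs passed on the TMM scale and 6 on plain totals, and the 4 of Adcy5 and Gng7 were the pairs that passed on both.

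The other pairs thus depended on the scaling. On the TMM scale Ppp1r1b was lower in macrophages than in oligodendrocytes by 0.27 and than in astrocytes by 0.31 (adjusted p = 0.00483 in each permutation test). Between oligodendrocytes and astrocytes its difference was -0.04 (adjusted p = 0.696, permutation test). Arpp19 was higher in oligodendrocytes than in astrocytes by 0.28 (adjusted permutation p = 0.00036) and than in macrophages by 0.22 (0.0401), and Arpp21 was higher in oligodendrocytes than in macrophages by 0.25 (0.00036). On plain totals none of these 5 pairs passed, and the differences between oligodendrocytes and macrophages turned to -0.06 for Ppp1r1b, -0.12 for Arpp19 and -0.09 for Arpp21. Astrocytes minus macrophages passed on plain totals alone for Arpp19 (-0.26) and Ric8b (-0.30), each with an adjusted permutation p of 0.0422.

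Within mice, Drd2+ neurons held more Gnal, Gng7, Ric8b, Ptpn5 and Arpp19 than Drd1+ neurons, while Ppp1r1b and Adcy5 did not pass the test. In the edgeR fit with the mouse as a block, 5 of the 8 genes were higher in Drd2+ neurons, beside 15.7% of 11937 genes, and 1 was lower, beside 15.9%. The median difference was 0.17 on the log2 scale over the 8 genes and 0.00 over all genes tested. CPM in this comparison and the next are TMM-scaled over the libraries of the 2 clusters compared.

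Gnal ranged from 491 to 839 CPM with a median of 647 in Drd1+ neurons, and from 543 to 958 with a median of 736 in Drd2+ neurons. The ranges overlapped between mice, but within a mouse all 32 were higher in Drd2+ neurons, by 0.18 on the log2 scale (SE 0.01, adjusted p = 5.64e-21, edgeR). Gng7 rose from a median of 418 CPM (334 to 545) to 517 (425 to 697), by 0.27 (SE 0.01, adjusted p = 4.55e-32, edgeR), again in all 32 mice. Ric8b went from 337 CPM (248 to 474) to 376 (279 to 480), a difference of 0.17 (SE 0.02, adjusted p = 8.67e-15, edgeR) seen in 31 of 32 mice. The 3 genes that build and stabilise the Golf complex were therefore all higher in Drd2+ neurons, by 1.12- to 1.21-fold.

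Adcy5, the enzyme the complex drives, had medians of 633 CPM (498 to 749) and 649 (463 to 763), a difference of 0.03 (SE 0.01, adjusted p = 0.122, edgeR) with 21 of 32 mice higher. It came to an adjusted p of 0.0467 in edgeR when batch 3 was left out. Ppp1r1b had medians of 161 CPM (106 to 222) and 159 (122 to 223), and 16 mice were higher and 16 lower (adjusted p = 0.914, edgeR). Its fitted difference was -0.00 on the log2 scale (SE 0.02), and that of single mice went from -0.18 to 0.28.

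The largest difference was in Arpp19, the phosphatase 2A inhibitor. Its median was 200 CPM (151 to 273) in Drd1+ and 275 (212 to 368) in Drd2+ neurons, 0.45 higher on the log2 scale or 1.37-fold (SE 0.02, adjusted p = 2.2e-41, edgeR), in all 32 mice. Ptpn5 rose from 326 CPM (254 to 465) to 379 (279 to 543), by 0.19 (SE 0.02, adjusted p = 5.01e-18, edgeR), in 30 of 32. Arpp21 was slightly lower in Drd2+ neurons, with medians of 1131 CPM (924 to 1274) and 1109 (873 to 1258) and a difference of -0.04 (SE 0.01, adjusted p = 0.0174, edgeR) in 24 of 32 mice. That call was lost when batch 2 was left out (adjusted p = 0.122, edgeR), without the mouse as a block (adjusted p = 0.416) and within each batch alone. Gnal, Gng7, Ptpn5, Arpp19 and Ric8b were called in every batch fitted alone. The Arpp19 difference was present in every strain, from 0.33 ± 0.11 in CAST/EiJ to 0.53 ± 0.12 in NZO/HlLtJ (SD, n = 4 mice).

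**Figure D3:**
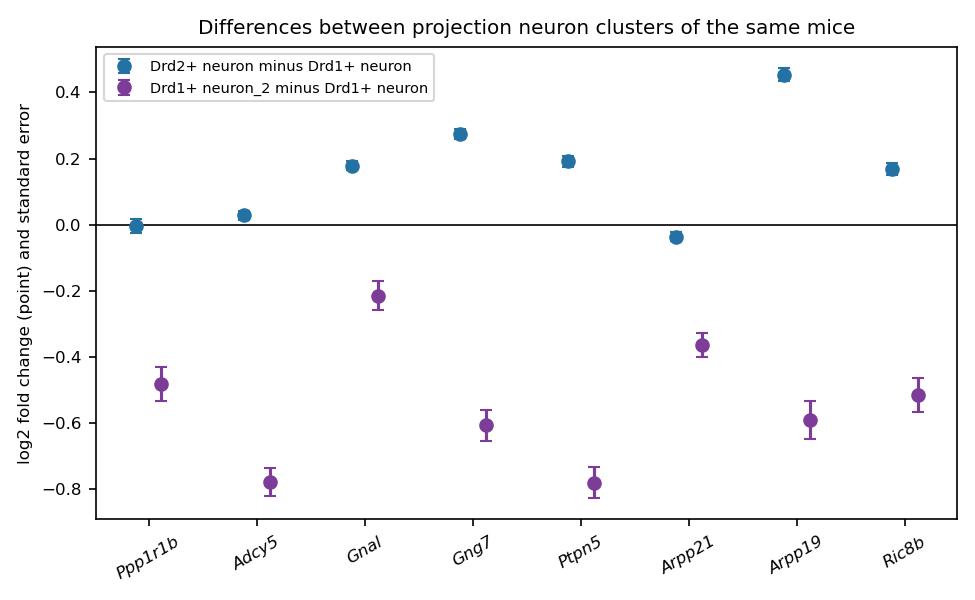
Log2 difference from Drd1+ neurons within mice for Drd2+ neurons and for the second Drd1+ cluster. Points are fitted log2 differences over 32 mice (edgeR), whiskers are standard errors and the horizontal line marks 0. Arpp19 has the highest point for Drd2+ neurons, at 0.45, and all 8 points for the second Drd1+ cluster lie below 0, from -0.21 (Gnal) to -0.78.

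Every gene of the cascade was lower in the second Drd1+ cluster than in Drd1+ neurons. The edgeR fit with the mouse as a block called 8 of 8 lower and 0 higher, beside 21.5% and 21% of 9491 genes, and the median difference was -0.55 on the log2 scale against 0.01 over all genes. Libraries of this cluster are small, 28 to 77 nuclei and 115071 to 401617 counts. Drd1 itself stood at 184 CPM there against 219 in Drd1+ neurons, on plain totals.

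Adcy5 fell from a mean of 644 to 378 CPM, by 0.78 on the log2 scale (SE 0.04, adjusted p = 7.96e-29, edgeR), in 32 of 32 mice. Ptpn5 fell from 353 to 207 CPM, also by 0.78 (SE 0.05, adjusted p = 1.08e-26, edgeR), in 32 of 32. Gng7 fell by 0.61 (SE 0.05) and Arpp19 by 0.59 (SE 0.06), in 32 and 30 mice. Cyclase and phosphatase thus dropped most, and Gng7 and Arpp19 followed close together. Ric8b fell by 0.52 (SE 0.05) in 30 mice, Ppp1r1b by 0.48 (SE 0.05) in 32 and Arpp21 by 0.36 (SE 0.04) in 32, with adjusted p of 2.19e-13 to 9.59e-15 in edgeR. Gnal changed least, from 663 to 575 CPM, a fall by 0.21 (SE 0.04, adjusted p = 2e-05, edgeR) seen in 24 of 32 mice. All 8 calls held under each alternative that was run, and plain totals were not among them. The size of the falls varied with the scaling. With TMM over all clusters the mean log2 difference was 0.42 for Gnal, in 29 of 32 mice, and 0.98 for Adcy5. On plain totals the mean of Gnal was 651 CPM in Drd1+ and 585 in second Drd1+ neurons.

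Between strains, 7 of the 8 genes differed in Drd1+ neurons and the same 7 in Drd2+ neurons, and Gnal missed the threshold in both. The strain term of the edgeR fit was called for 61.7% of 13431 genes in Drd1+ and 55.9% of 12799 in Drd2+ neurons, so most genes at this depth differed between these strains. The median F statistic of the 8 genes was 6.10 in Drd1+ neurons against 3.38 over all genes, and 4.82 against 2.95 in Drd2+ neurons. All genes were not matched to the 8 for expression level, whose part in these medians was not tested. CPM between strains are scaled by TMM within a cluster. Reads of all strains were counted on the builds mm10 and GRCm38, and the part of sequence variants in these counts was not tested. The differences were of modest size: the span from the lowest to the highest strain mean in Drd1+ neurons ran from 0.27 (Adcy5) to 0.54 (Ric8b) on the log2 scale.

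Of these strain terms, those of Gng7 and Arpp19 held under all 11 alternatives in both cell types, as did those of Ptpn5 and Ric8b in Drd1+ neurons. With each batch left out in turn, 5 to 7 genes were called in Drd1+ and 5 to 8 in Drd2+ neurons. The term of Ric8b in Drd2+ neurons was lost in 5 of 11 alternatives, among them without batch 1 (adjusted p = 0.0748, edgeR), without batch 2 (0.108) and without NZO/HlLtJ mice (0.0592). That of Adcy5 in Drd1+ neurons was lost in 4, among them without batch 1 (adjusted p = 0.058, edgeR), without batch 4 (0.0529) and without the batch block (0.341), the last also in Drd2+ neurons (0.212). Ppp1r1b was lost in both cell types without batch 1 (adjusted p = 0.0606 and 0.0588, edgeR) and without the block (0.105 and 0.0735), and in Drd2+ neurons without NZO/HlLtJ mice (0.173). Without CAST/EiJ and PWK/PhJ mice, Arpp21 was lost in both (adjusted p = 0.112 and 0.446, edgeR), Adcy5 in Drd1+ neurons (0.0961), and Ptpn5 (0.0711) and Ric8b (0.065) in Drd2+ neurons.

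**Figure D4:**
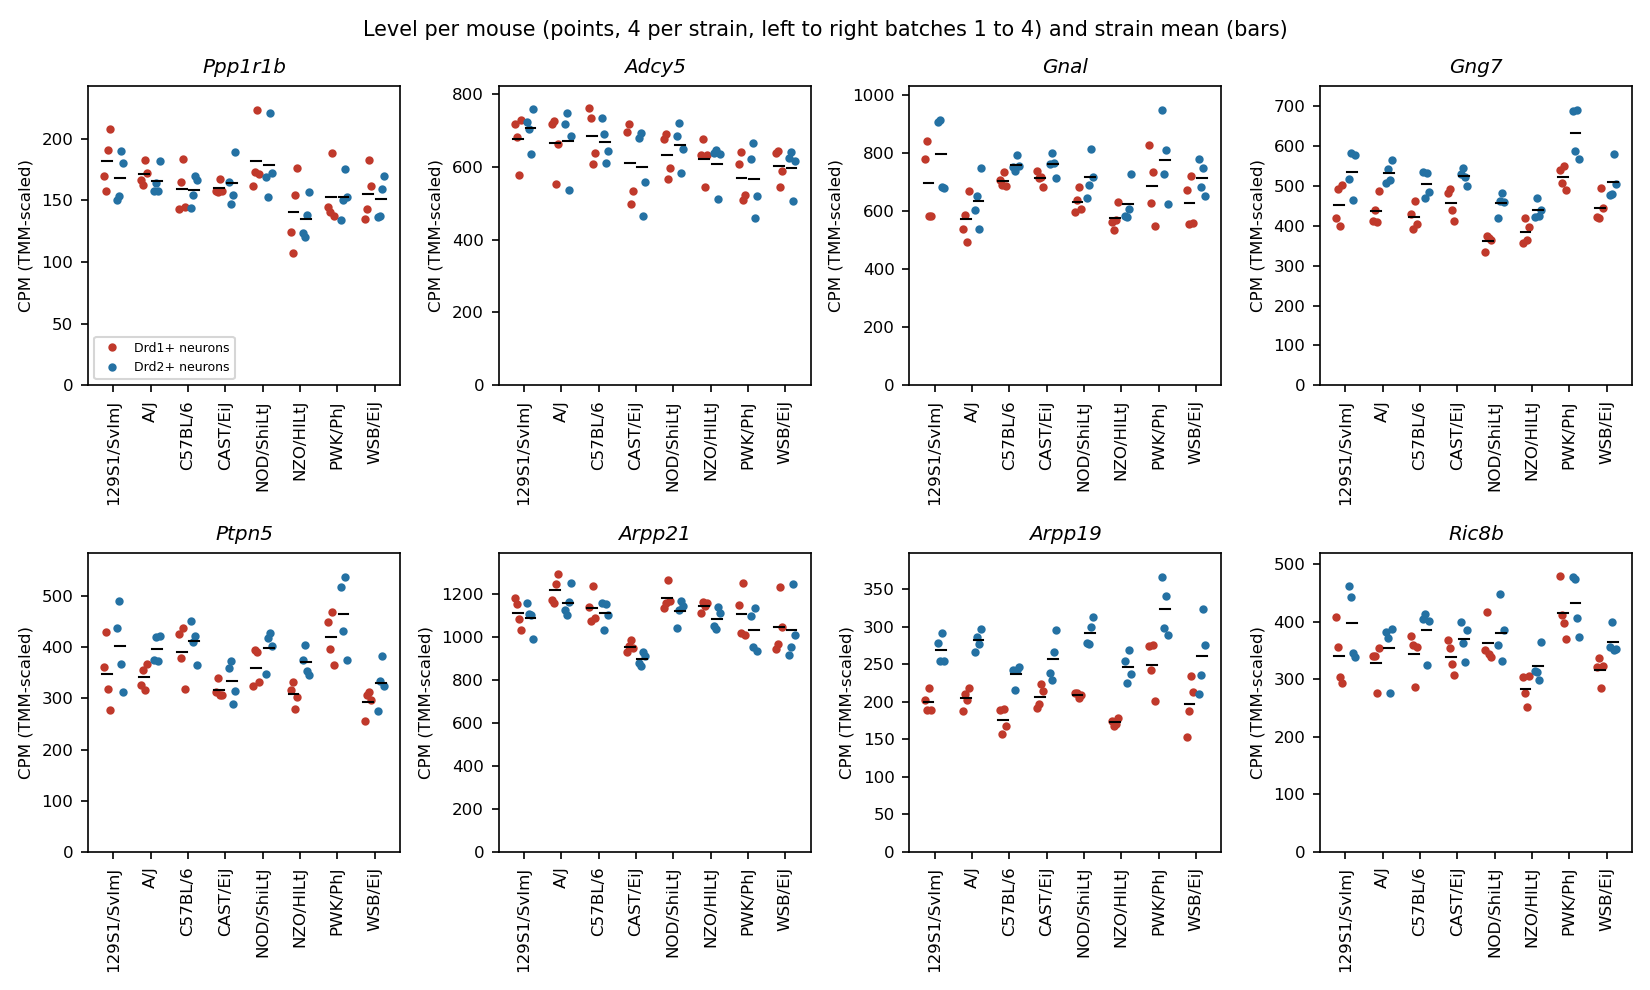
CPM of each gene in Drd1+ and Drd2+ neurons for every mouse, by strain. Points are mice (4 per strain), bars are strain means, and the axes start at 0. PWK/PhJ is the highest strain for Gng7, Ptpn5, Arpp19 and Ric8b in both cell types, CAST/EiJ the lowest for Arpp21, and NZO/HlLtJ the lowest for Ppp1r1b.

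By F of the strain term, Gng7 stood first of the 8 in Drd1+ neurons, at 8.71, with Ric8b close to it at 8.36. Over the 32 mice its level in Drd1+ neurons ranged from 335 to 550 CPM with a median of 421 (adjusted p = 5.91e-06, edgeR strain term). The PWK/PhJ mice of batches 1 to 4 stood at 541, 507, 550 and 489 CPM, and the NOD/ShiLtJ mice at 335, 376, 369 and 365. The lowest PWK/PhJ mouse was thus above the highest NOD/ShiLtJ mouse. Here and for the genes below, such a lack of overlap is a description. The strains set side by side were picked as the highest and lowest of the 8 on these same values, which favours a gap. Against the mean of the other 7 strains, PWK/PhJ was higher by 0.31 (SE 0.06, adjusted p = 2.6e-05, edgeR), NOD/ShiLtJ lower (-0.30, SE 0.06, adjusted p = 0.000314) and NZO/HlLtJ lower (-0.20, SE 0.06, adjusted p = 0.0146). The same 3 strains were called in Drd2+ neurons, with differences of 0.34, -0.20 and -0.26, and there NZO/HlLtJ had the lowest mean (439 ± 22.6 CPM against 633 ± 65.3 in PWK/PhJ). With batch 1 left out the calls of NZO/HlLtJ in Drd1+ (-0.17, adjusted p = 0.119, edgeR) and of NOD/ShiLtJ in Drd2+ neurons (-0.16, adjusted p = 0.177) were lost. Leaving out batch 3 also ended the first, and leaving out batch 2 or 4 the second.

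Ric8b, the Golf chaperone, ranged from 251 to 479 CPM in Drd1+ neurons with a median of 340 (adjusted p = 9.06e-06, edgeR strain term). PWK/PhJ mice stood at 479, 411, 398 and 370 CPM and NZO/HlLtJ mice at 304, 275, 251 and 305, so these strains did not overlap. PWK/PhJ was higher than the others by 0.33 (SE 0.06, adjusted p = 7.04e-06, edgeR) and NZO/HlLtJ was at -0.29 (SE 0.06, adjusted p = 0.000289). In Drd2+ neurons the corresponding values were 0.24 and -0.24, with adjusted p of 0.00303 and 0.00583. The call of NZO/HlLtJ in Drd2+ neurons was lost without batch 1 (adjusted p = 0.0758, edgeR) and without batch 2 (0.112).

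Gnal, which Ric8b stabilises, ranged from 495 to 844 CPM with a median of 654 in Drd1+ neurons. Its lowest strain mean was 573 ± 74.9 CPM in A/J and its highest 714 ± 23.7 in CAST/EiJ (SD, n = 4). The mice of these strains did not overlap, though the strain term was not called. Mice of a strain lay far apart: the 129S1/SvImJ mice stood at 780 and 844 CPM in batches 1 and 2 and at 585 and 584 in batches 3 and 4. The CAST/EiJ mice, at 740, 716, 718 and 682, were close together. The strain term gave an adjusted p of 0.0898 in Drd1+ and 0.081 in Drd2+ neurons in edgeR. It passed in both with DESeq2 (0.0391 and 0.049), without an expression filter (7.74e-06 and 0.000207 in edgeR) and without batch 4 (0.00261 and 0.000219 in edgeR).

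Adcy5 ranged from 498 to 760 CPM with a median of 638 in Drd1+ neurons (adjusted p = 0.00384, edgeR strain term). Its lowest strain, PWK/PhJ (569 ± 64.5 CPM), and its highest, C57BL/6 (685 ± 73.1), overlapped between mice. The CAST/EiJ mice of batches 1 to 4, at 694, 716, 498 and 533 CPM, show how the batches differed within a strain. Batch means of Adcy5 were 680, 688, 550 and 612 CPM, and batch 3 with the lowest was also the batch with the fewest UMIs per nucleus, whose part in this was not tested. PWK/PhJ was below the other strains in both cell types, by -0.17 (SE 0.05, adjusted p = 0.00543, edgeR) in Drd1+ and -0.19 (SE 0.05, adjusted p = 0.00514) in Drd2+ neurons. In Drd2+ neurons 129S1/SvImJ was higher by 0.19 (SE 0.05, adjusted p = 0.0117, edgeR), a call lost without batch 3 (adjusted p = 0.0993) or batch 4 (0.169). That of PWK/PhJ in Drd2+ neurons was lost without batch 4 (adjusted p = 0.0901, edgeR).

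Ppp1r1b ranged from 107 to 223 CPM with a median of 162 in Drd1+ neurons (adjusted p = 0.00255, edgeR strain term). NZO/HlLtJ mice stood at 124, 107, 154 and 177 CPM and NOD/ShiLtJ mice at 162, 173, 223 and 171, with overlap between the strains. NZO/HlLtJ was below the others (-0.24, SE 0.07, adjusted p = 0.00852, edgeR), NOD/ShiLtJ was above (0.19, SE 0.07, adjusted p = 0.0499), and 129S1/SvImJ, also at 0.19, passed just inside the threshold. In Drd2+ neurons NZO/HlLtJ was again lower (-0.27, SE 0.06, adjusted p = 0.00153, edgeR), with mice at 124, 121, 138 and 157 CPM, and this call held under all 9 alternatives run for it. The 3 calls in Drd1+ neurons were not stable: of 9 alternatives, that of NZO/HlLtJ was lost in 4 (in edgeR -0.16 and adjusted p = 0.2 without batch 2, and lost also without batch 1 or 3), that of NOD/ShiLtJ in 7 (0.14 and 0.282 without batch 3, and lost also without batch 1 or 2) and that of 129S1/SvImJ in 8 (0.12 and 0.262 without batch 4, and lost without each other batch). NOD/ShiLtJ was also called in Drd2+ neurons, where it was lost in 6 alternatives (0.09 and adjusted p = 0.437 in edgeR without batch 3, and lost also without batch 1 or 2). Contrary to Adcy5, batch means of Ppp1r1b in Drd1+ neurons were highest in batch 3, at 150, 151, 184 and 166 CPM for batches 1 to 4.

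Arpp21 ranged from 931 to 1291 CPM with a median of 1141 (adjusted p = 0.000511, edgeR strain term, Drd1+ neurons). CAST/EiJ mice stood at 931, 954, 983 and 946 CPM and A/J mice at 1173, 1157, 1245 and 1291. CAST/EiJ was lower than the other strains in Drd1+ (-0.25, SE 0.05, adjusted p = 0.000154, edgeR) and in Drd2+ neurons (-0.28, SE 0.05, adjusted p = 7.83e-05). A/J was higher in Drd1+ neurons by 0.16 (SE 0.05, adjusted p = 0.0218, edgeR), a call lost without batch 1 (adjusted p = 0.071), batch 2 (0.0676) or batch 4 (0.238). In the count of all contrasts no strain had its 4 mice all outside the range of the other 28, for this gene or any of the other 7.

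Arpp19 ranged from 152 to 276 CPM with a median of 202 (adjusted p = 5.88e-05, edgeR strain term, Drd1+ neurons). PWK/PhJ mice stood at 274, 242, 276 and 202 CPM and NZO/HlLtJ mice at 174, 168, 171 and 179, without overlap. PWK/PhJ was higher by 0.35 (SE 0.06, adjusted p = 2.15e-05, edgeR), and NZO/HlLtJ (-0.24, adjusted p = 0.00752) and C57BL/6 (-0.21, adjusted p = 0.0287) were lower. In Drd2+ neurons PWK/PhJ (0.30) and C57BL/6 (-0.21) were called, with adjusted p of 0.000171 and 0.0277 in edgeR. Both calls of C57BL/6 were lost when batch 2, 3 or 4 was left out (without batch 2, adjusted p = 0.257 in Drd1+ and 0.156 in Drd2+ neurons, edgeR), and that of NZO/HlLtJ without batch 2 (0.0557) or 3 (0.103).

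Ptpn5 ranged from 256 to 470 CPM with a median of 329 (adjusted p = 0.000144, edgeR strain term, Drd1+ neurons). PWK/PhJ mice stood at 449, 397, 470 and 365 CPM and WSB/EiJ mice at 256, 306, 312 and 297, without overlap. Against the others PWK/PhJ was higher by 0.33 (SE 0.07, adjusted p = 0.000344, edgeR) and C57BL/6 by 0.21 (SE 0.07, adjusted p = 0.0464), and WSB/EiJ was lower (-0.27, SE 0.07, adjusted p = 0.00862). In Drd2+ neurons PWK/PhJ (0.30), WSB/EiJ (-0.27) and CAST/EiJ (-0.24) were called. Without batch 1 both calls of WSB/EiJ were lost (adjusted p = 0.134 in Drd1+ and 0.223 in Drd2+ neurons, edgeR), the second also without batch 2 (0.157). That of C57BL/6 was lost without batch 1 (0.15, adjusted p = 0.298, edgeR) or batch 3 (0.271), and that of CAST/EiJ without batch 2, 3 or 4 (without batch 3, -0.16 and adjusted p = 0.19). The wild-derived strains thus lay on both sides for this gene.

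Read by strain, PWK/PhJ and NZO/HlLtJ held most of the calls. In Drd1+ neurons 17 of 64 pairs of gene and strain were called in edgeR, and 15 in Drd2+ neurons, 13 of them called in both. PWK/PhJ had 4 genes higher and 1 lower in either cell type, beside 34.4% of all genes called in Drd1+ and 30.3% in Drd2+ neurons. NZO/HlLtJ had 4 lower in Drd1+ (19.7% of all genes called) and 3 lower in Drd2+ neurons (18.5%), and none higher. CAST/EiJ, with 32.8% and 28.1% of all genes called, had 1 and 2 of the 8, all lower. The members' share in CAST/EiJ was therefore not above that of all genes.

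The other strains had 0 to 2 calls each. NOD/ShiLtJ had 1 higher (Ppp1r1b) and 1 lower (Gng7) in both cell types, beside 15.9% of all genes in Drd1+ and 12.1% in Drd2+ neurons. C57BL/6 had Ptpn5 higher and Arpp19 lower in Drd1+ neurons (13.9%) and Arpp19 lower in Drd2+ neurons (11.1%). WSB/EiJ had Ptpn5 lower in both, beside 16.9% and 15.3%. For 129S1/SvImJ it was Ppp1r1b in Drd1+ (12.3%) and Adcy5 in Drd2+ neurons (11%), both higher, and for A/J Arpp21 in Drd1+ neurons (17.2%) and no gene in Drd2+ neurons (15.2%). With every alternative, 7 of the 17 calls in Drd1+ and 7 of the 15 in Drd2+ neurons were kept. Those kept in both cell types were Arpp19, Gng7, Ptpn5 and Ric8b in PWK/PhJ and Arpp21 in CAST/EiJ.

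The strain means of each gene were set side by side in the 2 populations. Those in Drd1+ and Drd2+ neurons had r of 0.92 to 0.96 for the 8 genes and Spearman's rho of 0.79 (Gnal) to 0.98 (Ppp1r1b), a description over means from the same mice and pools. The interaction of strain and cell type, fitted in edgeR with the mouse as a block, called 0 of the 8 genes, beside 4.55% of 13791 genes. Ptpn5 came nearest, with an unadjusted p of 0.0357 and an adjusted p of 0.325, and was the only gene of the 8 under 0.05 before adjustment. Of all 13791 genes, 1739 were under 0.05 before adjustment, a share like 1 of 8. The mean difference of Ptpn5 between Drd2+ and Drd1+ neurons went from 0.09 ± 0.13 in CAST/EiJ to 0.29 ± 0.06 in NZO/HlLtJ (SD of log2 values, n = 4). For the other 7 genes adjusted p lay between 0.509 and 0.954, and DESeq2 called none either.

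Outside the main populations, few strain differences of these genes were called. In the second Drd1+ cluster 2 of 8 were, beside 17.5% of 5544 genes: Gnal, from 500 ± 58.9 CPM in WSB/EiJ to 712 ± 80.8 in C57BL/6 (adjusted p = 0.0327, edgeR), and Ptpn5, from 158 ± 22.8 in WSB/EiJ to 263 ± 71.0 in PWK/PhJ (adjusted p = 0.0267, edgeR). In oligodendrocytes Ric8b alone was called, beside 34.8% of all genes, from 45.1 ± 6.72 CPM in WSB/EiJ to 81.7 ± 12.5 in PWK/PhJ (adjusted p = 0.0259, edgeR). PWK/PhJ was the highest strain for Ric8b in oligodendrocytes and in both main neuron populations, but not in the second Drd1+ cluster. There its mean for Ric8b was the second lowest (234 ± 28.5 CPM, against 298 ± 19.3 in C57BL/6), as was its mean for Gng7 (265 ± 30.6), and the strain term of neither gene was called (adjusted p = 0.163 and 0.239, edgeR). The 3 calls, Gnal and Ptpn5 in the second Drd1+ cluster and Ric8b in oligodendrocytes, were lost with DESeq2.

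No gene of the cascade was called in the remaining testable clusters by edgeR, or by DESeq2. These were astrocytes (0 of 8, beside 21.5% of all genes), macrophages (0 of 7, beside 24.7%), Nxph1+ interneurons (0 of 8, 1.4%), endothelium (0 of 8, 3.29%) and the cluster Polydendrocyte/Oligodendrocyte (0 of 7, 1.24%). Gnal in macrophages and Ppp1r1b in Polydendrocyte/Oligodendrocyte did not pass the expression filter. Unadjusted p under 0.05 were seen for Gng7 in Nxph1+ interneurons and for Adcy5 in endothelium, 1 gene in each, and for 0 genes in the other 3. The median library held 138 nuclei in astrocytes, 81.5 in macrophages, 28.5 in Nxph1+ interneurons, 25 in endothelium and 15 in Polydendrocyte/Oligodendrocyte, and the part of library size was not tested.

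Covariation over mice was measured in Drd1+ neurons for the 28 pairs of the 8 genes. After centring on batch means, 24 pairs had a positive r over the 32 mice, 85.7% beside 49.95% of all pairs of the 13431 genes tested, a description with no test. In permutation tests within batch 9 pairs were called by Pearson's r and 6 by Spearman's rho. These permutations do not keep mice of the same strain together, so the p-values can be too small. The lowest r among the 9 was 0.46, and 3.33% of all pairs of genes reached it. Ptpn5 and Ric8b had r = 0.72 and rho = 0.73 (adjusted p = 0.00126 and 0.0014), and r was 0.59 without the 2 mice farthest from the median of the first gene. Arpp19 and Ric8b had r = 0.70 and rho = 0.58 (adjusted p = 0.00126 and 0.0104, permutation test), and 0.54 without 2 mice. PWK/PhJ mice are at the high end in both relations.

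Gnal went with Ric8b (r = 0.54, rho = 0.50), with Ptpn5 (0.51, 0.49) and with Gng7 (0.46, 0.45), with adjusted permutation p of 0.0247, 0.0277 and 0.0438 for r. For Gnal and Gng7 the adjusted p of rho was 0.0663. Ppp1r1b and Adcy5 had r = 0.54 and rho = 0.58 (adjusted permutation p = 0.0168 and 0.0104). With batch means left in, its r was -0.175, and batch 3 was high for Ppp1r1b and low for Adcy5. Ptpn5 and Arpp21 had r = 0.51 and rho = 0.46 (adjusted permutation p = 0.0247 and 0.0461). For Arpp19 with Gng7 and with Ptpn5, r was 0.51 in each but 0.29 and 0.30 without 2 mice, so with strain means left in these relations rest on those mice.

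With strain means removed as well, all 28 pairs had a positive r, beside 50.01% of all pairs of genes at that centring. Of the 28, 13 were called, of which 7 are among the 9, and their lowest r was 0.48, which 1.99% of all pairs of genes reached. The permutations do not take account of the strain means removed, so these p-values can be too small. Ptpn5 and Arpp21 then had r = 0.83, Gnal and Ptpn5 r = 0.65, and Ptpn5 and Ric8b fell from 0.72 to 0.50. The 6 pairs called at this centring alone were Gnal with Arpp21 (r = 0.74, from 0.01 with strain means left in), Gng7 with Arpp21 (0.64, from -0.10), Arpp21 with Arpp19 (0.63, from 0.14), Adcy5 with Gng7 (0.62, from -0.09), Gng7 with Ptpn5 (0.53, from 0.38) and Arpp21 with Ric8b (0.48, from 0.12). Ptpn5 and Arpp19 had r = 0.55 (adjusted permutation p = 0.00454), and 0.60 without 2 mice. The calls of the other 2 were lost: Arpp19 and Ric8b fell from r = 0.70 to 0.41 (adjusted permutation p = 0.0772), and Gng7 and Arpp19 had r = 0.30 (adjusted permutation p = 0.177). Leaving out batch 1 reduced the called pairs from 9 to 1, and leaving out batch 3 to 3.

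**Figure D5:**
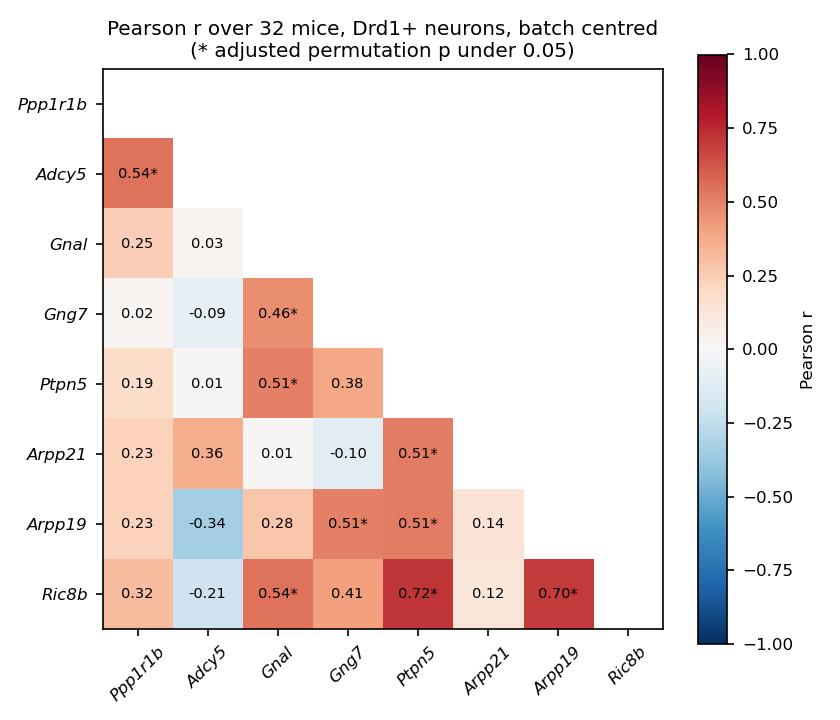
Pearson r of batch-centred log2 CPM for each pair of the 8 genes over the 32 mice in Drd1+ neurons, with the value printed in each cell, coloured from -1 to 1, and an asterisk at the 9 called pairs. The highest values are 0.72 for Ptpn5 and Ric8b and 0.70 for Arpp19 and Ric8b.

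The other genes of the pathway, 79 in 8 lists, were tested in the same fits. The strain term was called for 48 of 72 tested in Drd1+ neurons (66.7%, beside 61.7% of all genes) and 41 of 71 in Drd2+ neurons (57.7%, beside 55.9%), shares near the background. By list, it was called in Drd1+ neurons for 6 of 7 receptors, 10 of 14 G protein subunits, 5 of 6 chaperones and regulators, 5 of 5 adenylyl cyclases, 5 of 11 PKA genes, 9 of 12 phosphatases and kinases acting on DARPP-32, 5 of 11 genes of the ERK branch and 3 of 6 other targets. Among the called genes with the largest spans of their lists, Adcy2, another cyclase, went from 14.2 ± 3.20 CPM in WSB/EiJ to 61.2 ± 13.3 in CAST/EiJ in Drd1+ neurons (adjusted p = 0.000103, edgeR). Ppp1r1a, which encodes another PKA-dependent inhibitor of protein phosphatase 1, went from 41.2 ± 5.54 in PWK/PhJ to 90.9 ± 9.47 in WSB/EiJ (adjusted p = 1.42e-13, edgeR).

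Between Drd2+ and Drd1+ neurons, 33 of 70 pathway genes tested were higher in Drd2+ and 15 lower, beside 15.7% and 15.9% of all genes. These counts include 7 of 7 receptors tested, 5 higher and 2 lower, from a list with Drd1 and Drd2, which name the clusters. Among the other cyclases 2 of 4 tested were higher in Drd2+ neurons and 1, Adcy2, was lower (-2.54, SE 0.11), while Adcy5 did not pass. Among the other G protein subunits 5 of 13 tested were higher and 4 lower, among them Gnb4 (-1.87, SE 0.06), with a median difference of -0.01 on the log2 scale. Of 11 ERK genes 5 were higher and 2 lower, among them the exchange factor Rasgrf2 (-2.17, SE 0.07). Adcy2, Gnb4 and Rasgrf2 each had an adjusted p of 6.84e-20 or less in edgeR. In the second Drd1+ cluster 19 of 67 were higher and 28 lower, beside 21% and 21.5%. The gamma subunit Gng2 was higher by 4.54 (SE 0.15, adjusted p = 5.13e-45, edgeR) where Gng7 was lower, and Adcy2 higher by 2.16 (SE 0.15, adjusted p = 5.74e-14, edgeR) where Adcy5 was lower. Of the 4 other cyclases tested there, Adcy2 alone was higher and 2 were lower. The interaction of strain and cell type was called for 7 of 74 pathway genes (9.46%, beside 4.55% of all genes), led in their lists by Gnb4, Adcy2 and Rasgrf2.

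The genes whose mean level over 15 clusters was most like each member were named by the highest Pearson r of log2 CPM among 8164 genes, as a description of clusters that share pools. Gnal was nearest to Gprin3 (r = 0.99), Ptpn5 to Kcnip2 (0.97), Ric8b to Grm4 (0.97), Arpp21 to Rprml (0.97), Adcy5 to Strn (0.96), Ppp1r1b to Scn4b (0.96), Gng7 to Syndig1l (0.95) and Arpp19 to Snw1 (0.92). Gng7 was itself the third nearest gene to Ppp1r1b (0.93), and the phosphatase subunit gene Ppp3ca the third nearest to Ptpn5 (0.97). Over the 32 Drd1+ libraries, with batches centred and among 13431 genes, Ptpn5 was nearest to Prkacb (0.85), which encodes a catalytic subunit of PKA. Gnal was nearest to Rab6b (0.87), Ric8b to Ranbp2 (0.85), Arpp21 to Hs3st5 (0.84), Adcy5 to Ank3 (0.82), Gng7 to Map4k5 (0.82), Ppp1r1b to Cacna1c (0.80) and Arpp19 to Sorbs2os (0.79).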

How the data were processed

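Nuclei of 32 mice were profiled in 4 pooled batches. Per the submitters' processing notes, bcl2fastq 2.20.0.422 and Cell Ranger ARC 2.0.0 were used with builds mm10 and GRCm38. The authors deposited raw UMI counts per gene and nucleus, without normalization. The deposited table of nuclei (unit other: categories such as strain and cluster) was used unchanged. Per the labels' protocols and that table, the authors assigned strains with Demuxlet, kept nuclei with over 200 and under 7500 genes and under 15% mitochondrial counts, and removed doublets with DoubletFinder. Deposited accessible regions (also other) were read as positions only.

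Here, counts were summed per mouse and cluster into libraries of at least 10 nuclei. The strain term was testable in 9 of 18 clusters (at least 3 mice of every strain). Genes passed filterByExpr, libraries were TMM-scaled, and edgeR 4.0.16 (R 4.3.3) quasi-likelihood tests of strain used strain and batch. Within-mouse comparisons used the mouse as a block. P-values were Benjamini-Hochberg adjusted over all genes tested, and called under 0.05. Per the labels a batch is a shared pool of 1 mouse of every strain, so the batch number pairs mice by design. Log2 CPM (counts per 1e+06) used a prior count of 2, and permutation tests, all two-sided, 100000 resamples (exact under 10 mice) with numpy 2.4.6 under Python 3.11.15, and scipy 1.17.1. No library was dropped from these fits for its values, and mice of Drd1+ and Drd2+ neurons were complete. Counting error is covered by the spread between mice.

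The 8 members, the pathway and marker lists and the naming rule were chosen with earlier results of these data known. The rule named the 8 members in every comparison, from each pathway list the called gene with the largest change, and the 3 genes most like each member, of at least 50 CPM in 1 cluster for the likeness over clusters. Alternatives were edgeR's RLE scaling, DESeq2 1.42.0, no expression filter, libraries of at least 30 nuclei, no block, and leaving out each batch, CAST/EiJ and PWK/PhJ, or NZO/HlLtJ. For levels they were a prior count of 0.5 and plain totals. The fits were run on simulated counts without batch effects. Strain changes set there were larger than any strain contrast called here for the 8 genes, so changes of this size were not covered.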

Additional observations from a re-analysis of the deposited data

Results flagged for a closer look

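In 8 of 128 groups of 4 mice (a gene, a strain and a cell type), the highest or lowest mouse stood apart from the other 3 by Dixon's criterion. Chance meets it in about 1 in 20 groups if the mice share a distribution. Each group here held 1 mouse of each batch, and the values were not centred on batch means. Ric8b had 4 of them: NOD/ShiLtJ batch 2 at 416 CPM in Drd1+ neurons (others 338 to 350), A/J batch 3 at 277 (371 to 387), C57BL/6 batch 3 at 325 (401 to 414) and WSB/EiJ batch 2 at 400.0 (351 to 356), these last 3 in Drd2+ neurons. Ppp1r1b had a high mouse in batch 3 in Drd1+ neurons in 2 strains, PWK/PhJ at 188 CPM (others 137 to 145) and CAST/EiJ at 167 (157 to 158). In Drd2+ neurons, Adcy5 was at 512 CPM in NZO/HlLtJ batch 3 (others 636 to 645), and Arpp19 at 216 in C57BL/6 batch 2 (243 to 247). Of the 8 mice, 5 are from batch 3, the shallowest batch, and 3 from batch 2. Those of batch 3 lie on the side of its batch means. For Ppp1r1b in Drd1+ neurons this mean was high, at 184 CPM (other batches 150 to 166). In Drd2+ neurons it was low for Ric8b, at 333 (373 to 403), and for Adcy5, at 538 (632 to 688). The part of batch or depth was not tested.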

How the results depend on the processing

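Without the replicate block (no batch or mouse term), the strain term was called for 5 of the 8 genes in Drd1+ neurons (7 with it), for 4 in Drd2+ neurons (7 with it) and for 0 in oligodendrocytes (1) and in the second Drd1+ cluster (2). Called pairs of gene and strain then numbered 10 in Drd1+ (17 with the block) and 9 in Drd2+ neurons (15). Without centring on batch means, r of Ppp1r1b and Adcy5 was -0.175 (0.54 with it). DESeq2 called 0 genes in oligodendrocytes and 0 in the second Drd1+ cluster. Without CAST/EiJ and PWK/PhJ mice, 4 genes were called in Drd2+ neurons, 0 in oligodendrocytes and 1 in the second Drd1+ cluster. On plain library totals, the excess of Drd1+ neurons over oligodendrocytes was smaller by 0.28 to 0.30 on the log2 scale for all 8 genes: it was 1.81 for Adcy5, against 2.11, 0.64 for Gng7, against 0.93, 0.49 for Arpp19, against 0.79, and 0.48 for Ppp1r1b, against 0.77. Leaving out each batch in turn gave 0 to 1 called genes in oligodendrocytes, 0 to 3 in the second Drd1+ cluster, 10 to 17 pairs of gene and strain in Drd1+ and 9 to 13 in Drd2+ neurons, and 1 to 9 pairs of covarying genes. The cause of these changes was not tested.

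Of all recomputed counts, levels and differences that answer a comparison, 193 kept their size (within 1.5 times for counts, within 1 SD over mice for levels) and 22, given above, moved. Among values for single genes, 656 kept their side of the threshold, 111 no longer passed, 7 newly passed and 1 called value, the r of Ppp1r1b and Adcy5 given above, changed sign. Of the 656, 3 changed sign without being called: the difference of Drd2+ from Drd1+ neurons went to 0.02 without batch 3 and to 0.07 within batch 4 for Ppp1r1b, and to -0.01 within batch 3 for Adcy5. Libraries of at least 30 nuclei left too few mice to test Nxph1+ interneurons, endothelium and Polydendrocyte/Oligodendrocyte. With 4 mice per strain, spans of strain means under those found may go undetected, and glial levels of these genes carry an unmeasured share of free RNA.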

Other observations

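Accessible regions of the deposited list that fell within each gene, from start to end, numbered 54 in Arpp21, 45 in Adcy5, 38 in Ric8b, 36 in Gnal, 19 in Gng7, 14 in Ptpn5, 6 in Arpp19 and 4 in Ppp1r1b. Per 10 kb of gene this was 2.49 (Ptpn5) to 4.26 (Ppp1r1b), beside a median of 1.75 over 21631 protein-coding genes, and a median of 3 regions per gene. The list pools cell types and strains, and the density was not tested.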
